A study of Mus musculus with 16 samples.

Results

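Kidneys lacking Ezh2 in the nephron lineage and carrying 1 intact Ezh1 allele were compared with control kidneys on 8 of the 16 two-colour arrays of the series, 4 arrays a genotype, chosen by their titles. Each array read 56605 distinct non-control probes. All kidneys were whole mouse kidneys of strain C57BL/6 at embryonic day 17.5. The control kidneys carried wild-type Ezh1 and Ezh2. The other 4 samples had a homozygous conditional knockout of Ezh2, restricted to progenitors of the nephron that express Six2, and had lost 1 germline allele of Ezh1; they are called Ezh1-heterozygous below. Ezh1 was therefore reduced in every cell of these embryos and Ezh2 was deleted in 1 lineage only, while the arrays read RNA from all cells of the organ. In such RNA, fewer cells of a type and less RNA per cell cannot be told apart. On each array the kidney under study was labelled with Cy5, and control kidney 1, labelled with Cy3, was the common reference; the array of control 1 therefore set that RNA against itself. Values are log2 ratios of Cy5 to Cy3, and differences are the mean of the Ezh1-heterozygous arrays minus the mean of the control arrays, in which the shared reference cancels.

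Ezh1 and Ezh2 are the alternative catalytic subunits of Polycomb repressive complex 2 (PRC2), which methylates histone H3 on lysine 27 and keeps developmental regulators silent in cells that should not express them. Ezh2 predominates in dividing progenitors, and Ezh1 in more mature cells. Six2-expressing progenitors renew themselves under the cortex of the embryonic kidney and give rise to every epithelial segment of the nephron, from podocyte to distal tubule, whereas the collecting duct, stroma and vessels have other origins.

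The share of probes well above background in Cy5 ran from 53.1% to 63.4% over the 16 arrays and was lowest on control 2. Controls 2 and 3 stood apart. Control 2 had the widest log2 ratios (median absolute deviation 0.33, against 0.13 for the self-to-self array), and control 3 had the lowest medians of the early nephron (-1.03), proximal tubule (-1.89) and loop of Henle (-1.60) lists. Ezh1-heterozygous arrays correlated with each other at 0.56 to 0.77 over all probes passing the filter, and control arrays at 0.15 to 0.45. These are correlations of ratios to control 1, so any difference from control 1 that the heterozygous arrays share raises theirs. The self-to-self array holds no such difference. The correlations therefore cannot compare the spread of the 2 genotypes. Because of the ratios and list medians of controls 2 and 3, results are also given without them. This leaves controls 1 and 4, of which control 1 is the self-to-self array, and fewer arrays also make calls harder to reach. Arrays 1 and 2 of each genotype lay on slide 1 and arrays 3 and 4 on slide 2. The nephron progenitor genes Six2 and Cited1 and the renal vesicle genes Wnt4 and Lhx1 were well above background on 4 of 4 arrays of either genotype, as were the tubule genes Umod and Lrp2. Xist, the RNA of the inactive X chromosome, was well above background on 4 of 4 control and 1 of 4 Ezh1-heterozygous arrays, where it read -2.91, -2.89, -0.28 and -2.71 on arrays 1 to 4, against 0.31, -1.91, -2.49 and -0.29 in the controls. The groups overlapped for Xist, with a difference of -1.10. They also overlapped for the Y-linked genes Ddx3y (0.0), Kdm5d (-0.15) and Eif2s3y (0.18). The part of embryo sex in the results was not tested.

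Both targeted genes were lower in the Ezh1-heterozygous kidneys. The single Ezh1 probe read -1.38, -1.09, -1.17 and -0.88 on Ezh1-heterozygous arrays 1 to 4 and 0.05, -0.31, 0.22 and -0.28 on control arrays 1 to 4. No heterozygous array reached the lowest control. The difference was -1.05 ± 0.15 (SE, n = 4 and 4, adjusted p = 0.000945), a 2.07-fold higher level in controls, and the mean was -4.55 where both alleles were lost. With median centring, which moved the median of all genes from 0.05 to 0.44, the difference was -0.49 and did not pass (adjusted p = 0.116). Ezh2 was read by 5 probes. One of them (A_51_P248067) read -3.74, -3.35, -3.04 and -3.61 against 0.09, -0.51, 0.44 and 0.37 in controls, a difference of -3.53 ± 0.21 (SE, n = 4 and 4, adjusted p = 9.8e-08). The other Ezh2 probes differed by -0.34 to -0.58. Which exons were deleted is not given in the sources used here, so the probes that moved little check nothing about the label.

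Of 34731 probes that passed the filter on dim signals, 2206 (6.35%; 4.00% higher and 2.35% lower) differed between Ezh1-heterozygous and control kidneys in limma's moderated test over all 16 arrays at a Benjamini-Hochberg adjusted p under 0.05. A probe or gene is said to have risen or fallen only if it passed this test. At the level of genes, read by the brightest probe each, 884 of 15646 rose (5.65%) and 276 fell (1.76%), together 7.41%, and these shares are the background for the gene lists below. Among them, 101 rose and 18 fell at least 2-fold. The median rise was 0.56 and the median fall -0.51 on the log2 scale. All 4 heterozygous arrays lay above all 4 controls for 12.6% of genes and below them for 5.23%. A core of 188 genes, 164 higher and 24 lower, kept the call when any 1 of the 8 arrays was left out. They also kept it when controls 2 and 3 were left out together, and are called stable below. The word covers only these fits. With scaling between arrays 57 probes passed in all, and stable genes such as Hoxa13, Bmi1, Ttr and Wif1 lost their calls. Array 4 of the heterozygous group carried the count most, since 349 genes rose and 63 fell without it. Without controls 2 and 3, 179 genes rose (1.14%) and 44 fell (0.281%).

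**Figure D1:**
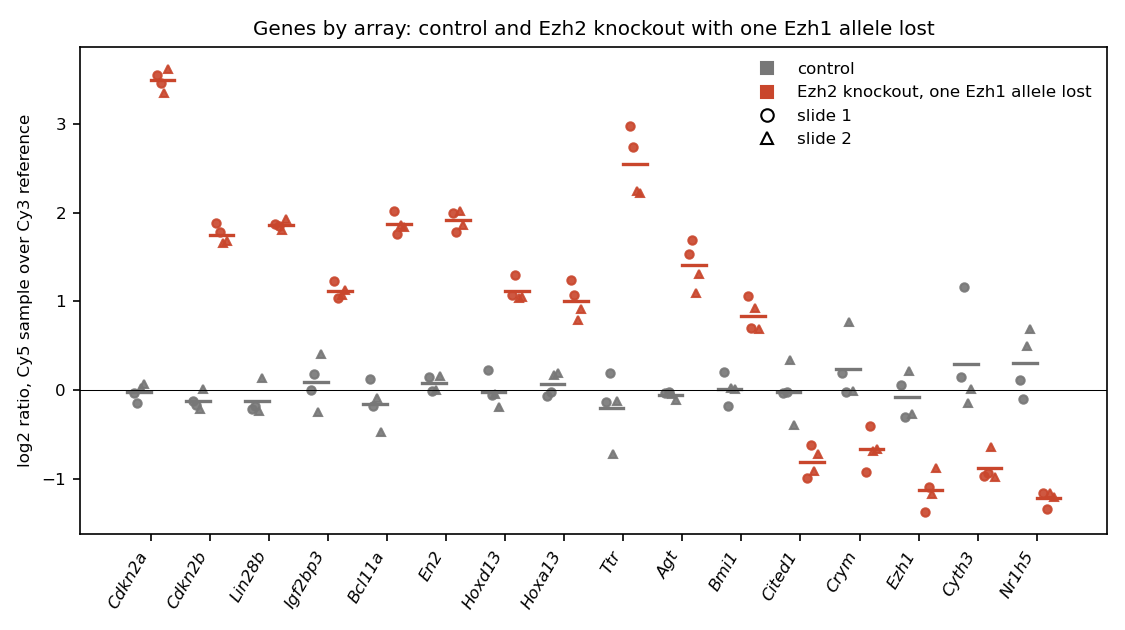
Log2 ratio of Cy5 sample to Cy3 reference for 16 genes on the 4 control arrays (grey) and the 4 Ezh1-heterozygous arrays (red). Circles are slide 1, triangles slide 2, and bars are group means. All 16 genes keep their call without any 1 array, and for each of them the groups do not overlap.

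Cdkn2a rose most of the genes named by the size of their change, and its neighbour Cdkn2b rose with it. Cdkn2a encodes p16-INK4a and ARF, which stop the cell cycle through the RB and p53 proteins, and Cdkn2b encodes the related inhibitor p15-INK4b. The locus is a textbook PRC2 target. RefSeq lists 2 Cdkn2a start regions in GRCm38.p6, both on the minus strand, and they are shown because Cdkn2a changed most; CG dinucleotides are in capitals.

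Cdkn2a, chr4:89294570-89294869: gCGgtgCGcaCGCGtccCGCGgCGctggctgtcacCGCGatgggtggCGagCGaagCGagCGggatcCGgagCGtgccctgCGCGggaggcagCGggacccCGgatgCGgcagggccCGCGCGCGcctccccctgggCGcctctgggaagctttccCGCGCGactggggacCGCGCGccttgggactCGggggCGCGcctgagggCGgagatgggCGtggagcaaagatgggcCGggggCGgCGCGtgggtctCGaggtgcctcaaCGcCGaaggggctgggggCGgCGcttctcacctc
Cdkn2a, chr4:89282143-89282442: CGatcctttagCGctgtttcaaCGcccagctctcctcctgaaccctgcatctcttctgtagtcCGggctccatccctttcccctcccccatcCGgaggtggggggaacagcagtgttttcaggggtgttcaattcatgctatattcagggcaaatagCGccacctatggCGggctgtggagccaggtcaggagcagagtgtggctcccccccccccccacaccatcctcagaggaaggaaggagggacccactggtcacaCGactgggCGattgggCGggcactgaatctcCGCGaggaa

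The first of these windows holds 45 CG dinucleotides in 300 bases and the second 12, and 43.5% of the 32851 promoter windows in the table hold at least 10. Of the 12378 measured genes with a promoter there, 75.1% have at least 10, so such windows are common among the genes measured. Cdkn2a read 3.56, 3.46, 3.35 and 3.62 on the Ezh1-heterozygous arrays and -0.04, -0.15, 0.02 and 0.06 on the controls. All 4 controls were at background, and all 4 heterozygous arrays were clear of it and lay close together. The difference was 3.52 ± 0.32 (SE, n = 4 and 4, adjusted p = 1.38e-05). Because the controls were at background, this is reported as at least 11.5-fold higher. Its second probe differed by 0.65.

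Cdkn2b read 1.89, 1.79, 1.66 and 1.68 in Ezh1-heterozygous kidneys and -0.13, -0.17, -0.22 and 0.01 in controls. The groups were far apart, with a difference of 1.88 ± 0.22 (SE, n = 4 and 4, adjusted p = 0.000151). Of 8 cyclin-dependent kinase inhibitors measured, 4 rose and none fell. The others to rise were Cdkn2c (p18-INK4c), at 0.49 ± 0.10 (SE, n = 4 and 4, adjusted p = 0.00971), and Cdkn1a (p21), at 0.62 ± 0.17 (SE, n = 4 and 4, adjusted p = 0.0421). The call for Cdkn2c ended without controls 2 and 3 (0.34, adjusted p = 0.16). Cdkn1a groups overlapped through control 2, and its call ended without any of 6 single arrays, controls 3 and 4 and all 4 heterozygous arrays. The list median was 0.44, against 0.05 for all genes. Of 31 proliferation and mitosis genes 0 passed limma's test, 9 had an unadjusted p under 0.05, and their median difference was 0.17.

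Of 22 genes of the p53 list, which holds p53's own gene Trp53 (-0.11) and genes that p53 activates, 9 rose and none fell, with a list median of 0.20. Pmaip1 (Noxa), which promotes apoptosis, read 1.66, 1.12, 1.54 and 1.36 in Ezh1-heterozygous kidneys. Its control values were -0.06, -0.44, -0.51 and 0.12. The groups did not overlap, and the difference was 1.64 ± 0.24 (SE, n = 4 and 4, adjusted p = 0.00114). Zmat3, an RNA-binding target of p53, read 0.51, 0.50, 0.52 and 0.67 on heterozygous and -0.10, -0.44, 0.03 and -0.28 on control arrays, a difference of 0.75 ± 0.13 (SE, n = 4 and 4, adjusted p = 0.00326). Gdf15 (0.92) and Eda2r (0.53) rose too, but their calls ended without controls 2 and 3 (adjusted p = 0.0998 and 0.0934). The count fell to 4 genes without heterozygous array 4 and to 2, Pmaip1 and Zmat3, without controls 2 and 3.

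Transcription factors that pattern the hindmost body or other organs were among the genes that rose. Of 38 Hox genes measured 5 rose and 2 fell, and of 45 measured regulators of lineages outside the kidney 12 rose and none fell. Another 40 of the 85 listed regulators gave no gene that passed the filter and were not tested. The genes of Hox group 13, the most 5' of each cluster, normally specify distal limb, tail and genital tissue. Promoters of a pair of them are shown because both genes went from background to clear signal; the Hoxd13 window is on the plus strand and the Hoxa13 window on the minus strand of GRCm38.p6.

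Hoxd13, chr2:74667975-74668274: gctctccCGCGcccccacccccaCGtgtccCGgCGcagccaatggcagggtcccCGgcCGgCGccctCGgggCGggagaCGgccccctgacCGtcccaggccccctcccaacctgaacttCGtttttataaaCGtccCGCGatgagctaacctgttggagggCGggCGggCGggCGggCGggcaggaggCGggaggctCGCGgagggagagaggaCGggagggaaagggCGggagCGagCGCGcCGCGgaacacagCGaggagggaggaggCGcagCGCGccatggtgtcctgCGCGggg
Hoxa13, chr6:52260831-52261130: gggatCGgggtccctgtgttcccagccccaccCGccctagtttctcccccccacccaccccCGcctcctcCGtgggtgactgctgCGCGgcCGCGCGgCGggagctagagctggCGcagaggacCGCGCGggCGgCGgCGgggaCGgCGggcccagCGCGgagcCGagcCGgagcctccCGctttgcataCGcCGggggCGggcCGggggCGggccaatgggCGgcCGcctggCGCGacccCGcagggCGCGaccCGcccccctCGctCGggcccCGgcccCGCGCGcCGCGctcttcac

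These windows hold 37 and 45 CG dinucleotides. Hoxd13 read 1.07, 1.29, 1.04 and 1.05 on Ezh1-heterozygous arrays and 0.22, -0.06, -0.05 and -0.19 on controls, a difference of 1.14 ± 0.12 (SE, n = 4 and 4, adjusted p = 7.41e-05), or at least 2.2-fold. Hoxa13 read 1.24, 1.07, 0.79 and 0.91 against -0.07, -0.02, 0.17 and 0.19, a difference of 0.93 ± 0.12 (SE, n = 4 and 4, adjusted p = 0.000497), or at least 1.91-fold. Hoxb13 read 1.38, 0.81, 0.97 and 0.90 against -0.03, 0.08, -0.10 and 0.15, a difference of 0.99 ± 0.17 (SE, n = 4 and 4, adjusted p = 0.00373), or at least 1.99-fold. For all 3 genes no control array was well above background and every heterozygous array was. Hoxc13, of the same group, differed by 0.21 and did not pass limma's test (adjusted p = 0.197). Hoxd1 rose by 0.28, a call that was not stable. Hoxa6 (-0.68) and Hoxb3 (-1.06) fell. The call for Hoxb3 ended without heterozygous array 4 (-0.99), and that for Hoxa6 without any of 6 single arrays. The other Hoxb3 probe differed by -0.155 and did not pass. The median of all Hox genes was -0.03, and 0.30 with median centring of the arrays, where all genes had a median of 0.44.

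Bcl11a, a zinc-finger repressor of the haematopoietic and nervous systems, was higher on every Ezh1-heterozygous array. It read 2.02, 1.75, 1.86 and 1.84 on Ezh1-heterozygous and 0.13, -0.18, -0.09 and -0.47 on control arrays. The groups did not overlap. The difference was 2.02 ± 0.13 (SE, n = 4 and 4, adjusted p = 1.19e-07). The other Bcl11a probes differed by 1.935 and 0.352. En2, a homeobox gene of the midbrain and hindbrain, read 2.00, 1.78, 2.02 and 1.86 against 0.15, -0.01, 0.00 and 0.16, a difference of 1.84 ± 0.28 (SE, n = 4 and 4, adjusted p = 0.00139). The pancreatic and motor neuron factor Nkx6-1 (1.08), the neuronal factor Ebf3 (0.99), and the mesenchymal factors Pax9 (0.64) and Prrx1 (0.62) were stable rises as well. Alx4, of the limb and face, rose by 0.85, and its call ended without controls 2 and 3 (adjusted p = 0.0537). Bcl11b, Foxf1, Foxa2 and Isl2 rose by 0.31 to 0.54, and their calls were not stable. Without controls 2 and 3, 7 of the 12 passed.

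Lin28b and its partner in fetal growth programmes, Igf2bp3, rose together. Lin28b blocks maturation of let-7 microRNAs, and Igf2bp3 is an RNA-binding protein controlled by let-7. Lin28b read 1.88, 1.85, 1.81 and 1.92 in Ezh1-heterozygous kidneys. Control values were -0.21, -0.19, -0.24 and 0.14, none of them well above background. The difference was 1.99 ± 0.12 (SE, n = 4 and 4, adjusted p = 8.81e-08), at least 3.97-fold. The second Lin28b probe differed by 0.32. Igf2bp3 read 1.23, 1.04, 1.07 and 1.12 against 0.00, 0.18, -0.25 and 0.41, a difference of 1.03 ± 0.16 (SE, n = 4 and 4, adjusted p = 0.00189). Of 18 genes of this list, these 2 rose and 1 fell, Igdcc3 at -0.50, and the list median was -0.02 (0.44 with median centring, equal to that of all genes).

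Among the Polycomb complexes themselves, Ezh1 and the accessory subunit Aebp2 fell and no other of 11 PRC2 genes changed by its brightest probe. Aebp2 fell by 0.46 with an adjusted p of 0.0462, its other probe differed by 0.20, and its call ended without any of 5 single arrays. In PRC1, the complex that binds the PRC2 mark, 3 of 21 subunits rose. Bmi1 (Pcgf4) read 1.06, 0.69, 0.92 and 0.69 against 0.20, -0.19, 0.02 and 0.02 in controls, a difference of 0.83 ± 0.12 (SE, n = 4 and 4, adjusted p = 0.000743). Pcgf5 read 0.86, 0.67, 0.51 and 0.50 against 0.10, 0.24, -0.18 and -0.01, a difference of 0.60 ± 0.11 (SE, n = 4 and 4, adjusted p = 0.00587). Both groups of values were separate. The chromodomain subunit Cbx7 rose by 0.52 with a call that ended without any of 5 single arrays. Among 19 other chromatin enzymes only the DNA methyltransferase Dnmt3b passed, at 0.44 with an adjusted p of 0.0498, and its call ended without any of 6 single arrays.

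**Figure D2:**
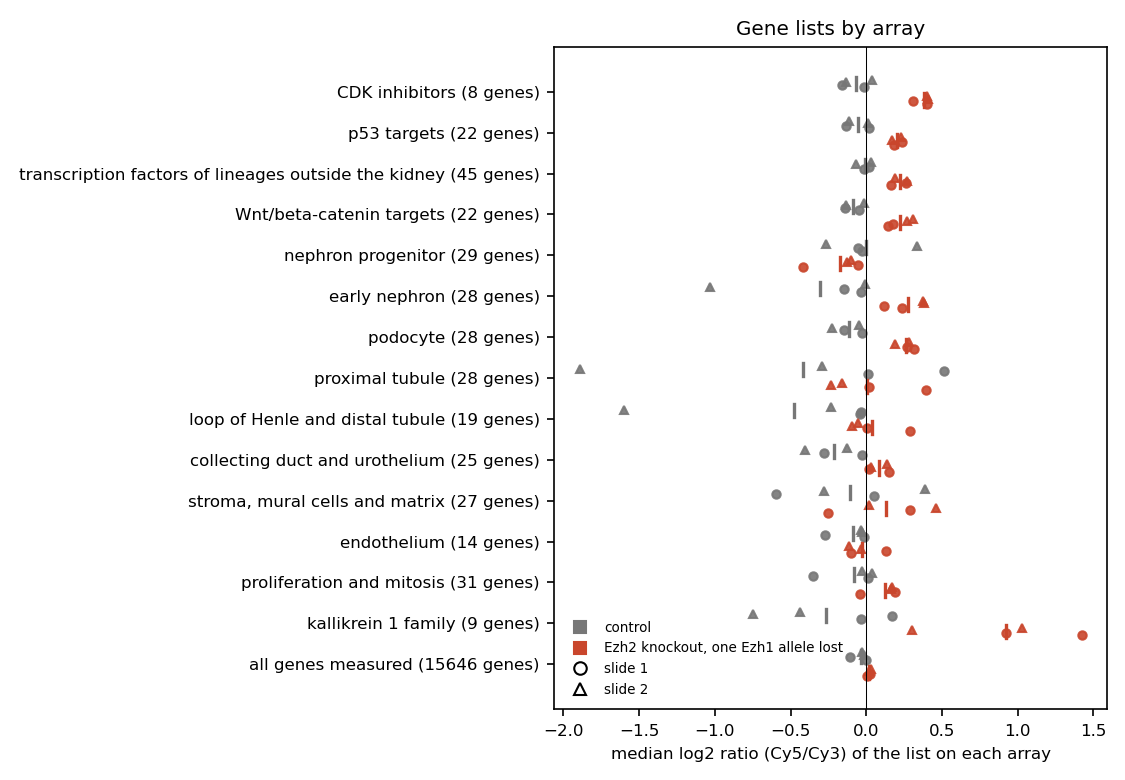
Median log2 ratio of each gene list on each array, control in grey and Ezh1-heterozygous in red, circles for slide 1 and triangles for slide 2, with group means as bars. Control 3 lies far to the left for early nephron (-1.03), proximal tubule (-1.89) and loop of Henle (-1.60). Medians of the cyclin-dependent kinase inhibitors separate the genotypes (at most 0.036 in controls and at least 0.311 on heterozygous arrays). Several other lists separate as well, and so do all genes measured, by a small margin (at most -0.002 and at least 0.008).

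Nephron progenitor genes moved in both directions. Of 29 measured, 3 rose and 5 fell, and the list median was -0.26; with median centring it was 0.28, below the median of all genes of 0.44 on that scale. Six2 itself, which marks the cells that lost Ezh2, read -1.03, -0.32, -0.43 and -0.20 in Ezh1-heterozygous and -0.03, -0.02, 0.60 and -0.55 in control kidneys, and the groups overlapped. Its difference was -0.49 ± 0.26 (SE, n = 4 and 4, adjusted p = 0.246). Cited1, the marker of the least committed progenitors, read -0.997, -0.62, -0.92 and -0.73 against -0.04, -0.02, 0.34 and -0.39, with no overlap. It fell by 0.79 ± 0.13 (SE, n = 4 and 4, adjusted p = 0.0029).

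Crym, a thyroid hormone-binding protein of cap mesenchyme, read -0.92, -0.41, -0.69 and -0.67 against 0.19, -0.02, 0.76 and -0.01 and fell by 0.90 (adjusted p = 0.00621). Both calls ended with median centring (-0.18 for Cited1 and -0.23 for Crym). Meox1 (-0.90), Traf1 (-0.69) and Robo2 (-0.46) also fell. Without heterozygous array 1, heterozygous array 3 or control 3 Meox1 lost its call (-0.72, -0.84 and -0.73), and neither Traf1 nor Robo2 was stable. Against these, Fgf9, a survival signal for progenitors, rose by 0.71, with control 3 alone low at -0.74. Lypd1 rose by 0.51.

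Markers of the structures that progenitors form rose in part. Fewer passed without controls 2 and 3, as over all genes, where 179 instead of 884 rose. No other pair of controls was left out, so the smaller number of arrays and the choice of these controls cannot be told apart. Of 28 podocyte genes, 10 rose and none fell, and the list median was 0.36. Ptpro, a receptor phosphatase of podocytes, read 1.21, 0.94, 0.66 and 0.95 on Ezh1-heterozygous arrays and -0.03, -0.40, -0.76 and -0.05 on controls. Its difference was 1.25 ± 0.27 (SE, n = 4 and 4, adjusted p = 0.0143), and without controls 2 and 3 it was 0.98 (adjusted p = 0.178). Thsd7a (0.96) also rose, with an adjusted p of 0.13 without controls 2 and 3. Between 3 (without heterozygous array 4) and 10 podocyte genes rose when single arrays were left out, and 0 did so without controls 2 and 3 by limma. Of 28 early nephron genes 5 rose, with a median of 0.54; by limma 0 rose without heterozygous array 3, without heterozygous array 4, or without controls 2 and 3. Wnt4 (-0.01) and Lhx1 (0.15) did not pass.

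In the tubule lists few genes passed. One of 28 proximal tubule genes rose (Pck1), 1 of 19 in the loop of Henle and distal tubule (Cldn16) and 1 of 25 in the collecting duct and urothelium (Krt19). The call for Pck1 ended without any of 6 single arrays (controls 3 and 4 and all 4 heterozygous arrays, 1.37 to 1.92), that for Krt19 without heterozygous array 2 (0.85) or 4 (0.86), and none of the 3 passed without controls 2 and 3 (adjusted p = 0.16, 0.0761 and 0.167 for Pck1, Cldn16 and Krt19). The list medians of 0.38, 0.54 and 0.41 fell to 0.15, 0.40 and 0.13 without controls 2 and 3. The kallikrein 1 genes, tubular serine proteases whose close paralogs may share probe signal, had a list median of 1.14, and 6 of 9 rose. Klk1b5 read 2.13, 1.45, 0.61 and 1.47 against -0.04, 0.36, -1.95 and -0.64, a spread of over 1 log2 unit in either group. The count of kallikreins that rose dropped to 1 without control 3, control 4 or heterozygous arrays 1 or 2, and to 0 without heterozygous array 4. Pappa2, a protease that frees insulin-like growth factors, read 1.68, 1.36, 1.33 and 1.23 against -0.13, -1.58, -2.08 and -0.66 and rose by 2.51 (adjusted p = 0.00522); without controls 2 and 3 the difference was 1.79 (adjusted p = 0.0977).

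**Figure D3:**
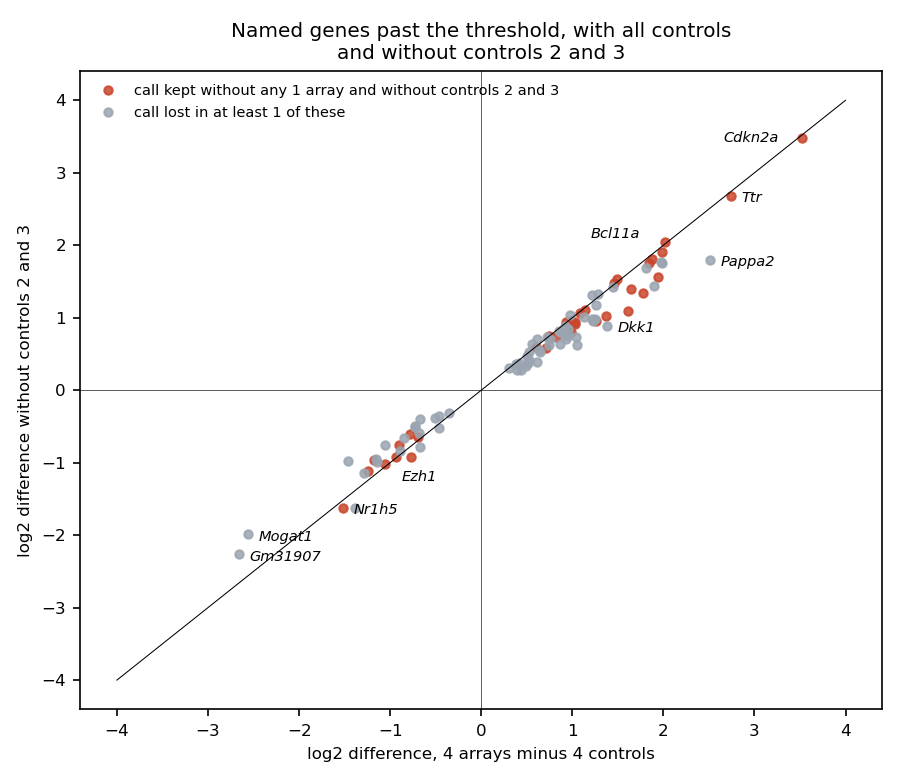
Log2 difference of the named genes that passed the threshold, with all 4 controls (horizontal axis) and without controls 2 and 3 (vertical axis); the diagonal marks equal values. Red genes keep their call without any 1 array and without both controls, and grey genes do not. Cdkn2a, Ttr and Bcl11a lie close to the diagonal, while Pappa2 and Dkk1 lie below it.

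The genes of the secreted proteins Ttr and Agt were among the stable rises. Ttr (transthyretin), a carrier of thyroid hormone made by liver and choroid plexus, read 2.98, 2.74, 2.25 and 2.22 on Ezh1-heterozygous and -0.13, 0.19, -0.73 and -0.13 on control arrays. The groups did not overlap, and the difference was 2.75 ± 0.44 (SE, n = 4 and 4, adjusted p = 0.00235). Its second probe differed by 0.50. Agt (angiotensinogen), the precursor of angiotensin, read 1.54, 1.69, 1.09 and 1.31 against -0.03, -0.02, -0.04 and -0.12, below background in every control, a difference of 1.46 ± 0.18 (SE, n = 4 and 4, adjusted p = 0.000251), or at least 2.75-fold. Other liver-type genes were listed with Ttr, and 4 of 18 rose. Rbp4 (1.26), the carrier of vitamin A, and the acute-phase gene Saa2 (1.29) rose with calls that ended without controls 2 and 3 (adjusted p = 0.0624 and 0.0585). The hepatocyte gene Alb did not pass, at 0.05 ± 0.22 (SE, n = 4 and 4, adjusted p = 0.909).

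The Agt window is printed as a contrast to the CG-rich windows above; it holds 1 CG dinucleotide, on the minus strand of GRCm38.p6.

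Agt, chr8:124569657-124569956: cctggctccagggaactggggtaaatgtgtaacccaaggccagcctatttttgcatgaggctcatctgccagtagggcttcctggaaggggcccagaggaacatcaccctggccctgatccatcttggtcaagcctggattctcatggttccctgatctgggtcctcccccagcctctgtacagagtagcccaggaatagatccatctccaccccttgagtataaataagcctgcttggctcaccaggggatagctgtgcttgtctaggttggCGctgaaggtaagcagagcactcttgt

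Over lists, CG content was not compared, since 74.9% of the genes that rose and 79.1% of all genes measured had a promoter in the table.

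Feedback antagonists and targets of Wnt/beta-catenin signalling rose in 8 of 22 cases, and none fell, with a list median of 0.45. Rnf43, a membrane ligase that removes Wnt receptors, read 1.05, 0.84, 0.99 and 1.18 in Ezh1-heterozygous kidneys and 0.01, -0.44, -0.98 and -0.02 in controls, a difference of 1.37 ± 0.21 (SE, n = 4 and 4, adjusted p = 0.00144). Wif1, a secreted Wnt inhibitor, read 0.93, 1.11, 0.90 and 1.13 against 0.17, -0.07, -0.15 and -0.01, a difference of 1.03 ± 0.11 (SE, n = 4 and 4, adjusted p = 4.61e-05). Both were separate on all arrays. Dkk3 (0.95) and Nkd1 (0.63) lost their calls without controls 2 and 3 (adjusted p = 0.0945 and 0.0668). Dkk1, at 1.38, read -1.79 on control 3 and lost its call without any of 6 single arrays. The count ranged from 5 (without control 2, heterozygous array 1 or heterozygous array 4) to 8 when single arrays were left out, and was 3 without controls 2 and 3. In the Notch pathway 1 of 15 genes rose, Hey1 (0.50), a target of the pathway, and its call ended without any of 6 single arrays.

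Imprinted growth genes changed in both directions, 6 higher and 3 lower of 21. Sgce (epsilon-sarcoglycan), expressed from the paternal allele, read 1.40, 1.26, 1.39 and 1.37 against 0.09, -0.73, -0.79 and 0.42, a difference of 1.61 ± 0.24 (SE, n = 4 and 4, adjusted p = 0.00122). Magel2 was a smaller stable rise (0.44). Dlk1 (1.23) and Meg3 (1.04), reciprocally imprinted neighbours, rose together, with adjusted p of 0.0537 and 0.107 without controls 2 and 3. Zim1 read -0.79, -0.50, -0.48 and -0.94 against 0.04, 0.27, 0.30 and 0.44 and fell by 0.94 (adjusted p = 0.00235). Mest (-0.84) and Grb10 (-0.72) fell with calls that ended without controls 2 and 3 (adjusted p = 0.0682 and 0.152) and with median centring.

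Markers of other cells in the organ gave few calls. By limma 0 of 14 endothelial, 9 erythroid and 7 adrenal cortex genes passed, with 2, 0 and 2 at an unadjusted p under 0.05. In the stromal list 2 of 27 rose and 1 fell. Fbln2 (fibulin 2), an extracellular matrix protein, read 1.07, 1.35, 1.17 and 1.31 against 0.05, 0.14, -0.79 and 0.48, with control 3 low, a difference of 1.26 ± 0.20 (SE, n = 4 and 4, adjusted p = 0.00207). Of 16 macrophage and MHC class II genes, Cd14 rose (0.41) and H2-Eb1 and Cd74 fell. H2-Eb1, an antigen-presenting class II chain, read -0.74, -0.53, -0.68 and -0.72 against -0.15, 0.13, 0.02 and 0.10, a difference of -0.69 ± 0.11 (SE, n = 4 and 4, adjusted p = 0.00283), and its call ended with median centring (-0.25). One of 12 neutrophil genes, Elane, fell by 0.36; control 2 was its highest control (0.48), and the call ended without control 2 (-0.30), heterozygous array 2 (-0.35) or heterozygous array 4 (-0.33), and with median centring (-0.06).

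In the neuronal and neuroendocrine list 3 of 21 rose, Map2 (1.05), Chga (0.74) and Uchl1 (0.64), and Dcx fell (-0.67); no call was stable. Germline genes gave 1 of 7, Tdrd5 (0.40), which also stands in the podocyte list. Immediate early and heat-shock genes gave 2 of 18, Atf3 (1.21) and Ier3 (0.86). The call for Atf3 ended without control 3 (1.01), heterozygous array 1 (1.07) or heterozygous array 4 (1.21), and neither gene passed without controls 2 and 3 (adjusted p = 0.2 and 0.0695). Of 11 tubular injury genes 1 rose, Gdf15. Cldn3 (claudin 3), a tight-junction protein of epithelia, read 1.04, 0.91, 0.92 and 1.12 against -0.15, -0.86, -1.58 and -0.54 and had a difference of 1.78 ± 0.29 (SE, n = 4 and 4, adjusted p = 0.00243). Fndc3c1, an X-linked gene with fibronectin repeats, read 1.88, 1.69, 1.67 and 1.83 against -0.04, -0.44, -0.67 and 0.46, a difference of 1.94 ± 0.23 (SE, n = 4 and 4, adjusted p = 0.00017). For either gene the groups did not overlap.

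Falls were fewer and smaller. Nr1h5 (FXR-beta), a nuclear receptor, read -1.16, -1.34, -1.17 and -1.20 on Ezh1-heterozygous arrays, all below background, and 0.11, -0.11, 0.50 and 0.69 on control arrays, all above it. The difference was -1.52 ± 0.13 (SE, n = 4 and 4, adjusted p = 5.38e-06), at least 2.45-fold lower. Ocm (oncomodulin), a calcium-binding protein, read -1.14, -1.09, -1.32 and -1.15 against 0.05, 0.08, 0.30 and -0.17, a difference of -1.24 ± 0.13 (SE, n = 4 and 4, adjusted p = 4.37e-05). Cyth3, an exchange factor for ARF GTPases, read -0.97, -0.94, -0.65 and -0.99 against 0.15, 1.16, -0.15 and 0.01, a difference of -1.18 ± 0.23 (SE, n = 4 and 4, adjusted p = 0.00733), in which control 2 was high. For Mogat1, Gm31907 and Zfyve1 control 2 was far above the other controls. Mogat1, an enzyme of glyceride synthesis, read -2.99, -3.29, -2.77 and -2.50 against 0.01, 2.70, -2.23 and -1.82; control 2 alone stood high, the self-to-self array was near 0, and controls 3 and 4 were the nearest to the heterozygous arrays. Its difference of -2.56 ± 0.71 (SE, n = 4 and 4, adjusted p = 0.043) lost its call without control 1 or any 1 heterozygous array (-2.42 to -2.69), and Gm31907 (-2.66) and Zfyve1 (-1.47) had control 2 at 2.64 and 2.19. Gm31907 lost its call without heterozygous array 1, 2 or 4 (-2.57, -2.48 and -2.74), Zfyve1 without control 1 or any 1 heterozygous array (-1.38 to -1.54), and the other Zfyve1 probe gave 0.15.

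Probes without a gene symbol made up 250 of the probes that rose and 308 of those that fell. The largest rises were in A_55_P2005956 (2.07) and A_55_P2736804 (1.79), and falls in A_55_P2164443, below background on every Ezh1-heterozygous array and so at least 7.7-fold lower, and A_66_P137616 (-1.74). Control 2 read 2.69 and 2.36 on the probes that fell, far above the other controls.

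Detection gave a second description of the same arrays. A total of 124 probes (0.219%) were well above background on 4 of 4 Ezh1-heterozygous and 0 of 4 control arrays, and 50 (0.0883%) the reverse. At gene level the first set held 69 genes, of which 42 also rose, among them Cdkn2a, Lin28b, Agt, Hoxd13, Hoxa13 and Hoxb13. Hoxb13 was the 1 gene of the 69 that was at background on all 4 arrays of kidneys that lost Ezh2 alone, 24 were on in all 4 of those, and 34 were on in all 4 double knockout arrays. The 69 were picked for detection on every heterozygous array, so lower detection in another group can follow from that choice alone. The counts in the other knockouts only describe the set, and no share over all genes stands beside them. The reverse set held 7 genes, and 3 of them also fell, Nr1h5 among them.

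Ezh1-heterozygous kidneys were also set against those that lost Ezh2 with both Ezh1 alleles intact. In limma's test 8 genes passed at an adjusted p under 0.05 (0.0511% of those tested), 5 higher (0.0320%) and 3 lower (0.0192%). Beside Ezh1 (-1.18), the lower genes were Arl16 and Rsad2. Cdkn2a read 0.15, 0.61, 2.01 and 2.08 on arrays 1 to 4 with Ezh2 lost alone, low on slide 1 and higher on slide 2, all below the Ezh1-heterozygous arrays. It averaged 1.21 there and was 2.29 ± 0.32 higher with 1 Ezh1 allele missing as well (SE, n = 4 and 4, adjusted p = 0.0134). Hoxd13 (1.00) and Hoxa13 (0.86) were higher too, with means of 0.12 and 0.14 when Ezh2 alone was lost. By contrast, Bcl11a (mean 1.82 with Ezh2 lost alone) and Lin28b (1.80) did not differ by this test. Leaving out single arrays moved the count of probes from 4 to 47 around the 11 of the full set (0.0317% of probes), highest without array 4 of the Ezh2-only group. The count was 439 with array weights, 919 on slide 1 alone and 0 on slide 2 alone (915 at an unadjusted p under 0.05 by limma), so the number of genes that separate these genotypes is not settled here.

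Arl16, a small GTPase, read -0.91, -0.66, -1.04 and -1.08 on Ezh1-heterozygous arrays, 0.03, 0.22, 0.19 and 0.12 with Ezh2 lost alone and 0.03, -0.73, 0.12 and -0.05 in controls. It overlapped the controls through control 2 and was 1.06 ± 0.15 lower than with Ezh2 lost alone (SE, n = 4 and 4, adjusted p = 0.0134); its second probe gave -0.94. Where both Ezh1 alleles were lost its mean was -1.79. Olfr224, an olfactory receptor gene, read 1.52, 1.57, 1.43 and 1.68 on Ezh1-heterozygous arrays and 0.00, 0.06, 0.15 and 0.04 in controls, at least 2.81-fold higher, with -0.02, 0.01, 0.02 and 0.13 where Ezh2 alone was lost. Its mean was 1.55 on the Ezh1-heterozygous arrays and 1.66 in the double knockout, and this difference did not pass (adjusted p = 0.681). Both genes lie on the chromosome that carries Ezh1, as do 1301 measured genes beside Ezh1; these 2 were the ones among them that differed between Ezh1-heterozygous and Ezh2-only kidneys.

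Among the 20 measured neighbours on either side of Ezh1, 2 rose and 1 fell. Next to Ezh1 on one side Ramp2, a receptor-modifying protein, fell by 0.54 (adjusted p = 0.0242), and on the other Cntnap1 did not pass (-0.53, adjusted p = 0.0646). Around Ezh2, 1 of 40 neighbours rose and 3 fell, Cul1 next to it at -0.39 (adjusted p = 0.0316) and Rarres2, at -0.84, among them. The call for Ramp2 ended without any of 3 single arrays and that for Cul1 without any of 4. The shares are 5% and 2.5% around Ezh1 and 2.5% and 7.5% around Ezh2.

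**Figure D4:**
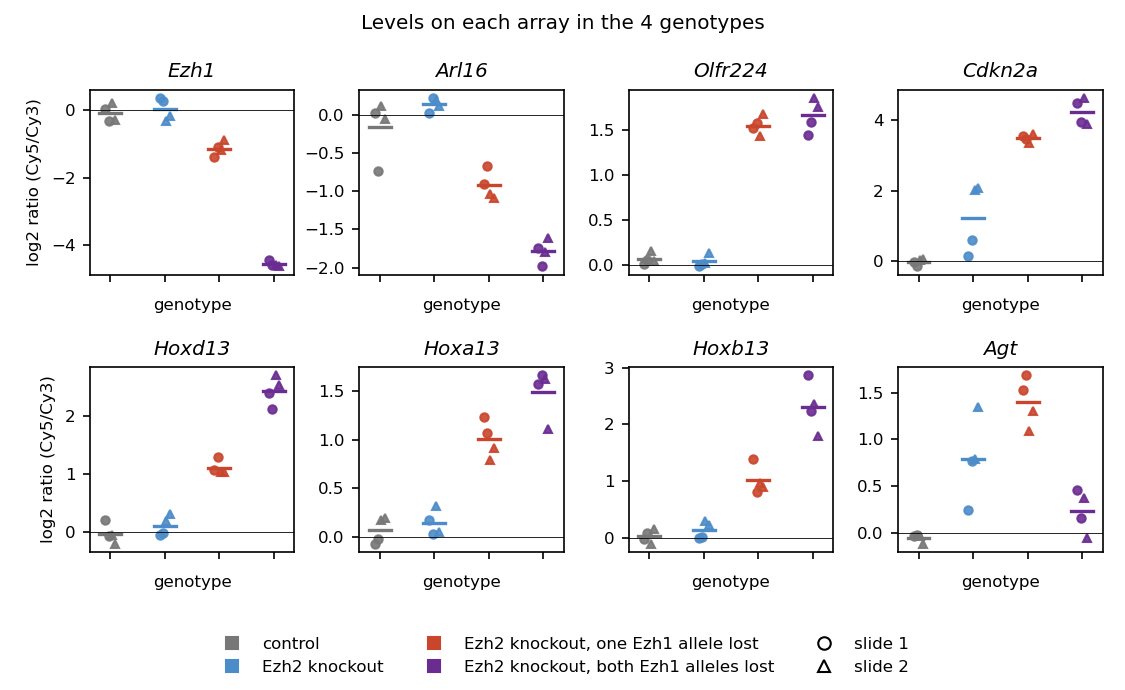
Log2 ratio of 8 genes on each array in the 4 genotypes, in the order control, Ezh2 knockout, Ezh2 knockout with 1 Ezh1 allele lost and Ezh2 knockout with both lost, with group means as bars, circles for slide 1 and triangles for slide 2. Mean Ezh1 is -1.13 with 1 allele lost and -4.55 with both lost, Olfr224 is at 1.55 and 1.66, and Hoxd13 is at 0.12 with Ezh2 lost alone, 1.11 with 1 Ezh1 allele lost and 2.44 with both.

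Loss of the second Ezh1 allele separated further genes. Between the double knockout and Ezh1-heterozygous kidneys, 43 genes passed (0.275%), 31 higher in the double knockout (0.198%) and 12 lower (0.0767%), from 59 probes (0.170%). This balance turned in other fits: 250 probes were higher and 1034 lower with only both groups fitted, and 276 and 454 with array weights, against 42 and 17 here. The higher set included 4 Hox genes and 10 of the transcription factors of lineages outside the kidney. Hoxd13 stood at 1.11 in the Ezh1-heterozygous kidneys and was 1.33 ± 0.12 higher with both alleles lost (SE, n = 4 and 4, adjusted p = 5.83e-05). Foxf1, a lung and gut mesenchyme factor, stood at 0.28 with 1 allele lost, and was 1.40 higher with both lost. Hoxb13 gave 1.29 and Ebf3 1.09. In the opposite direction, Agt, whose mean was 0.79 with Ezh2 lost alone, 1.41 with 1 Ezh1 allele also lost and 0.23 in the double knockout, differed by -1.17 between the last of these groups (adjusted p = 0.00769). Its difference of 0.62 from Ezh2 loss alone did not pass (adjusted p = 0.589). Serpina6, the carrier of corticosteroids, differed by -1.51 and stood at 0.42 in the Ezh1-heterozygous kidneys, where its rise over controls did not pass (adjusted p = 0.0514).

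Slides 1 and 2, with 2 arrays of each genotype on either, are given apart for the following genes. Where the groups do not overlap, as for all of these genes except Arl16, both slides must give the same direction. The values therefore describe the size of the difference only. On slide 1 Cdkn2a differed by 3.60 and on slide 2 by 3.45, Lin28b by 2.06 and 1.92, Bcl11a by 1.91 and 2.13, Olfr224 by 1.52 and 1.46, and Nr1h5 by -1.25 and -1.78. Values were further apart for Arl16 (-0.44 on slide 1 and -1.10 on slide 2) and Cyth3 (-1.61 and -0.75), which are stable too. Both lost their calls with scaling between arrays, and Cyth3 also on slide 2 alone. Arl16 also lost its call with the software's log ratio, the value table, trend and robust variance, and slide 1 alone. Mogat1 differed by -4.50 on slide 1, which holds control 2, and by -0.62 on slide 2. No probe passed limma's test of the difference between slides, and 1187 had an unadjusted p under 0.05. The loess step centres each array near 0; with median centring instead, 90.39% of the probes called were higher, against 62.96% here, so the balance of rises and falls depends on that step.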

How the data were processed

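RNA was read on 2-colour Agilent arrays. Agilent Feature Extraction 10.7.3.1 produced the intensity values that the authors deposited, per the submitters' processing notes; the authors' deposited log10 ratio of Cy5 over Cy3 and the series value table served as alternatives. Here spot signals were background-corrected (normexp, offset 50), loess-normalized within arrays without control spots, converted to log2 ratios and averaged per probe (R 4.3.3, limma 3.58.1). A probe was kept if its Cy5 signal was well above background on 4 or more of the 16 arrays. One model with 4 genotypes and eBayes gave the tests, adjusted by Benjamini-Hochberg over 34731 probes, and a gene is its brightest probe. A gene below background on every array of a group has a bound ("at least"), with that group set no lower than the dimmest signal well above background. Gene symbols were assigned here by matching the sequence identifier of each probe in the array design to RefSeq transcripts. A probe whose identifier gave no single symbol has none, so probes without a symbol can still read known genes.

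Members and gene lists were chosen with earlier results of these data known. Named genes were the 14 largest rises and 10 largest falls without overlap, the targeted genes, 8 fixed genes, up to 6 called members of each list, and the 5 extremes each way of the comparisons with the other knockouts; some of these are not reported here, and others (such as Hoxd1, Bcl11b, Isl2, Robo2, Alb and Xist) were named after their values were seen. Nothing says whether pairs numbered alike came from separate litters, so p-values rest on the spread among these samples only, which may be technical. The number of arrays limits the precision. On simulated data for this comparison (34731 probes), the test recovered 54% of probes changed by 0.5 and 98% of those changed by 1 on the log2 scale. It also called 17 unchanged probes. The simulated noise was normal, independent between probes and arrays, and equally wide in every genotype. Far fewer probes were changed, 50 at each size, than the 2206 called in the data. The Benjamini-Hochberg adjustment depends on the share of probes that change. The real controls were wider (median SD 0.158) than the heterozygous arrays (0.116), so these rates need not hold for the real arrays. Alternatives covered background, centring, scaling, filter, probe choice, blocks, weights, slides and single arrays.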

Additional observations from a re-analysis of the deposited data

Results flagged for a closer look

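Of 272 groups of 4 arrays examined for named genes and list medians, 21 (7.72%) held 1 array far from the other 3; chance gives about 1 in 20 groups. In control 3, Aadat (-1.89) and Fgf9 (-0.74) were far below the other controls, as were the list medians of early nephron (-1.03) and of loop of Henle and distal tubule (-1.60). In control 2, Dkk3 (-0.54) was far below and Elane (0.48) far above the other controls. The list medians of the PRC2 subunits (-0.26), proliferation (-0.35), imprinted growth genes (-0.22) and endothelium (-0.27) were also low there. Lin28b stood apart on control 4 (0.14) and Rbp4 on control 1 (-0.067), each the highest control.

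Among Ezh1-heterozygous arrays, array 3 was lowest for Tmem25 (-1.96), Krt19 (0.21) and Tdrd5 (0.19) and highest for Cyth3 (-0.65). Array 4 was highest for Zmat3 (0.67) and array 2 for Hoxd13 (1.29). The list median was lowest on array 2 for the cyclin-dependent kinase inhibitors (0.31), and on array 1 for proliferation (-0.04) and for the Lin28 and let-7 list (-0.012). Rsad2 moved in opposite directions on the slides, which differed by 0.10 (slide 2 minus slide 1), a difference that did not pass limma's test.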

How the results depend on the processing

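The count of probes that differed between Ezh1-heterozygous and control kidneys (2206) was 13199 with median centring, 57 with scaling between arrays, 1222 with one probe a gene, 1339 with the mean of a gene's probes, 3682 with array weights, 172 on slide 1 alone, 61 on slide 2 alone and 348 without controls 2 and 3. It ranged from 662 to 2425 without single arrays. Of the probes called, 62.96% were higher, and 90.39% with median centring. Against Ezh2 loss alone the count (11) was 7 with the software's log ratio, 7 with the value table, 0 with scaling (330 at an unadjusted p under 0.05 by limma), 3 with only both groups fitted, 2 with trend and robust variance, 439 with weights, 919 on slide 1, 0 on slide 2 (915 unadjusted by limma) and 4 to 47 without single arrays. The double knockout against Ezh1-heterozygous count (59) was 22 with scaling, 1284 with only both groups fitted, 730 with weights, 6 on slide 1, 3 on slide 2 and 33 to 47 without single arrays. With the replicate number as a block, the counts were 2168, 6 and 51. Same-numbered arrays also share a slide, and their deviations from the genotype means correlated at -0.41 to 0.50 (median 0.01). Arrays of other numbers on the same slide gave -0.45 to 0.60 (median -0.01). Such correlations cannot show whether same-numbered samples came from 1 litter, which was not tested. With scaling between arrays Gm31907 (0.15) and Mogat1 (0.45) reversed. The causes were not tested. Of the values for single genes, 2182 kept direction and side of the threshold, 637 lost the call, 11 gained it and 2 reversed. Genes near background have only a bound.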

Other observations

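Some genes of antigen presentation by MHC class I were picked after their values were seen, so they give no count for the pathway, which was not tested. H2-K1, a class I heavy chain, read 1.31, 1.47, 1.35 and 1.45 on the Ezh1-heterozygous arrays and -0.06, -0.39, -0.93 and 0.04 on the controls, without overlap. The difference was 1.73 ± 0.18 (SE, n = 4 and 4, adjusted p = 4.61e-05). H2-K2 (1.45) and H2-D1 (1.25) rose as well, and these paralogs may share probe signal. The peptide transporter subunits Tap2 (0.97) and Tap1 (0.51) and the light chain B2m (0.62) rose; the calls for Tap1 and B2m were not stable. Tapbp (0.29), Psmb8 (0.21) and Psmb9 (0.37) did not pass limma's test.

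Beside Agt, other genes of the renin-angiotensin system did not pass. Agtr1a, the main angiotensin receptor, differed by 0.45 (limma, adjusted p = 0.072), Ren1 (renin) by 0.35 (adjusted p = 0.0763) and Ace by 0.25 (adjusted p = 0.338).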
